A study of Mus musculus with 16 samples.

Results

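A set of 10 genes of the hepatic vessel wall was followed in whole-liver RNA: 5 genes that mark sinusoidal endothelium (Stab1, Stab2, Lyve1, Clec4g and Fcgr2b), Cd34, a marker of continuous endothelium, and 4 leukocyte adhesion molecules (Icam1, Vcam1, Selp and Sele). They were taken by name from a table of 25719 genes, and all 10 were found in it. One library was made from each of 16 male mice, which were 8 to 12 weeks old when feeding began: 4 WT mice of strain C57BL6J on a normal chow diet (NCD), 5 WT mice on a steatosis-steatohepatitis diet (SSD), 4 Klrk1-/- mice on NCD and 3 Klrk1-/- mice on SSD. The SSD drew 40% of its calories from fat and held 22% fructose and 2% cholesterol, and feeding lasted 3 weeks. Klrk1 encodes the activating receptor NKG2D of NK cells and T cells, and its knockout was carried by every cell of the animal, so that no cell type was singled out. The comparisons address how the diet acted on the liver in WT mice and in mice without NKG2D. Values are normalized counts, that is, reads on a gene divided by a factor for the library, and fold changes are differences of log2(normalized count + 1).

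The liver sinusoid is lined by a specialised endothelium that is fenestrated and lacks an organised basement membrane. Its cells clear waste molecules and small immune complexes from blood through scavenger, lectin and Fc receptors, and they are known to lose these receptors and to gain features of continuous capillaries, such as CD34, in chronic liver injury. The same vessel wall recruits leukocytes by displaying selectins, which slow passing cells, and ICAM-1 and VCAM-1, which bind leukocyte integrins. Several of these genes are not confined to endothelium: Stab1, Lyve1 and Fcgr2b are also known in macrophages, Fcgr2b in B cells, Vcam1 in Kupffer and stellate cells, Icam1 in hepatocytes and immune cells, and Selp in platelets. In whole-liver RNA, fewer cells of a type and less RNA per cell cannot be told apart.

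The libraries held 19892025 to 28936707 reads on genes. Klrk1, the knocked-out gene, lay between 20.1 and 71.1 normalized counts in the 9 WT mice and between 0.966 and 8.71 in the 7 Klrk1-/- mice, without overlap. Mouse 1 of the SSD-fed WT group stood apart: it was the highest of its 5 mice for 32.3% of 13068 genes, and its summed macrophage and stellate cell markers were the highest of all mice. Results that rest on this mouse are therefore also given without it. The labels do not say whether mice shared a cage, a litter or a preparation day.

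The adhesion genes are set apart from the sinusoidal genes by their known control through NF-kappaB, and the bases before their start sites are shown for that reason. Of the 10 genes, 8 matched an entry in the RefSeq promoter table on build GRCm38.p6, and Vcam1 and Lyve1 had none. The 250 bases before each start were searched on both strands for GGNNNTTCC, a spaced pair of NF-kappaB half-sites, which 15.7% of all 32851 promoters of this length hold. Capitals mark the matches, and each sequence runs 5' to 3' on the strand of its gene.
Icam1 promoter, chr9:21015690-21015939, plus strand: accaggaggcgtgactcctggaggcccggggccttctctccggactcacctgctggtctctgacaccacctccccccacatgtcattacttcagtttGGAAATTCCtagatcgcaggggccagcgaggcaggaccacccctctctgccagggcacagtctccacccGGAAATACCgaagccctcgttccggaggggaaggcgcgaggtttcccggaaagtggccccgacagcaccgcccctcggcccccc
Selp promoter, chr1:164115014-164115263, plus strand: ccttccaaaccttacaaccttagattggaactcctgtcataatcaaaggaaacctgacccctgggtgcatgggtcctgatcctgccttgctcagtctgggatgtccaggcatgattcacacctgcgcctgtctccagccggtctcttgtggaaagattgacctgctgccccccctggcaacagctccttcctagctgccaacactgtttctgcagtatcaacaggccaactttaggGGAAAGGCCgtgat
Sele promoter, chr1:164047984-164048233, plus strand: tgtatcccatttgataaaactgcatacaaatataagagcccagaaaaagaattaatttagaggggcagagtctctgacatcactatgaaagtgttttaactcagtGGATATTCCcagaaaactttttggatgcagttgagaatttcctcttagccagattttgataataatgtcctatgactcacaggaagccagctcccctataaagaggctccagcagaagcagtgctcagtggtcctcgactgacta
Icam1 held 2 matches, at 153 to 145 bases before the start, where GGAAATTCC reads as a match on both strands, and at 84 to 76 bases before it, where GGAAATACC matches on the minus strand. Selp held 1 match on the minus strand, 14 to 6 bases before the start, and Sele held 1 match on the plus strand, 145 to 137 bases before it. None of Stab1, Stab2, Clec4g, Fcgr2b and Cd34 held these letters in the window, nor the letters GATAA of a GATA motif, which 22.6% of promoters hold and which Sele held at 2 positions. The longer NF-kappaB consensus, present in 7.25% of promoters, was found in none of the 8. A match is a description of the letters and not a binding site. Of the 3 genes printed here, Icam1 alone differed past the threshold in any comparison of the main fit given below. Selp did so in none, and Sele was too low to be tested.

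Levels were compared between genes per kilobase of gene length. The length in the deposited table was used first, and the length of the Ensembl canonical transcript (GENCODE M39, GRCm39) was added after it was seen that the deposited lengths of Stab1 (1975 bases) and Stab2 (2165 bases) lie far below those of their transcripts (7999 and 10236 bases). On the deposited length, Clec4g, which encodes the lectin LSECtin, was the highest of the 10 genes in NCD-fed WT livers at 797 normalized counts per kilobase, followed by Fcgr2b, the inhibitory Fc receptor, at 578, Stab1 at 446 and Stab2 at 339.8, while Icam1 stood at 164, Vcam1 at 76.9, Lyve1 at 65.1, Selp at 20.3, Cd34 at 19.6 and Sele at 0.104. On the transcript length, Fcgr2b (271 ± 84.1 per kilobase, SD, n = 4) and Clec4g (269 ± 55.3) could not be ordered beyond their spread, and Icam1 (123 ± 35.2) and Stab1 (110.1 ± 31.3) could not either. Sele was last on both lengths in every group, and Clec4g and Fcgr2b held the top 2 places on both. Vcam1 was the sixth in both WT groups on the deposited length. On the transcript length it was the sixth in NCD-fed WT mice, and in SSD-fed WT mice (193 ± 116) it could not be ordered against Icam1 (192 ± 66.6).

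**Figure D1:**
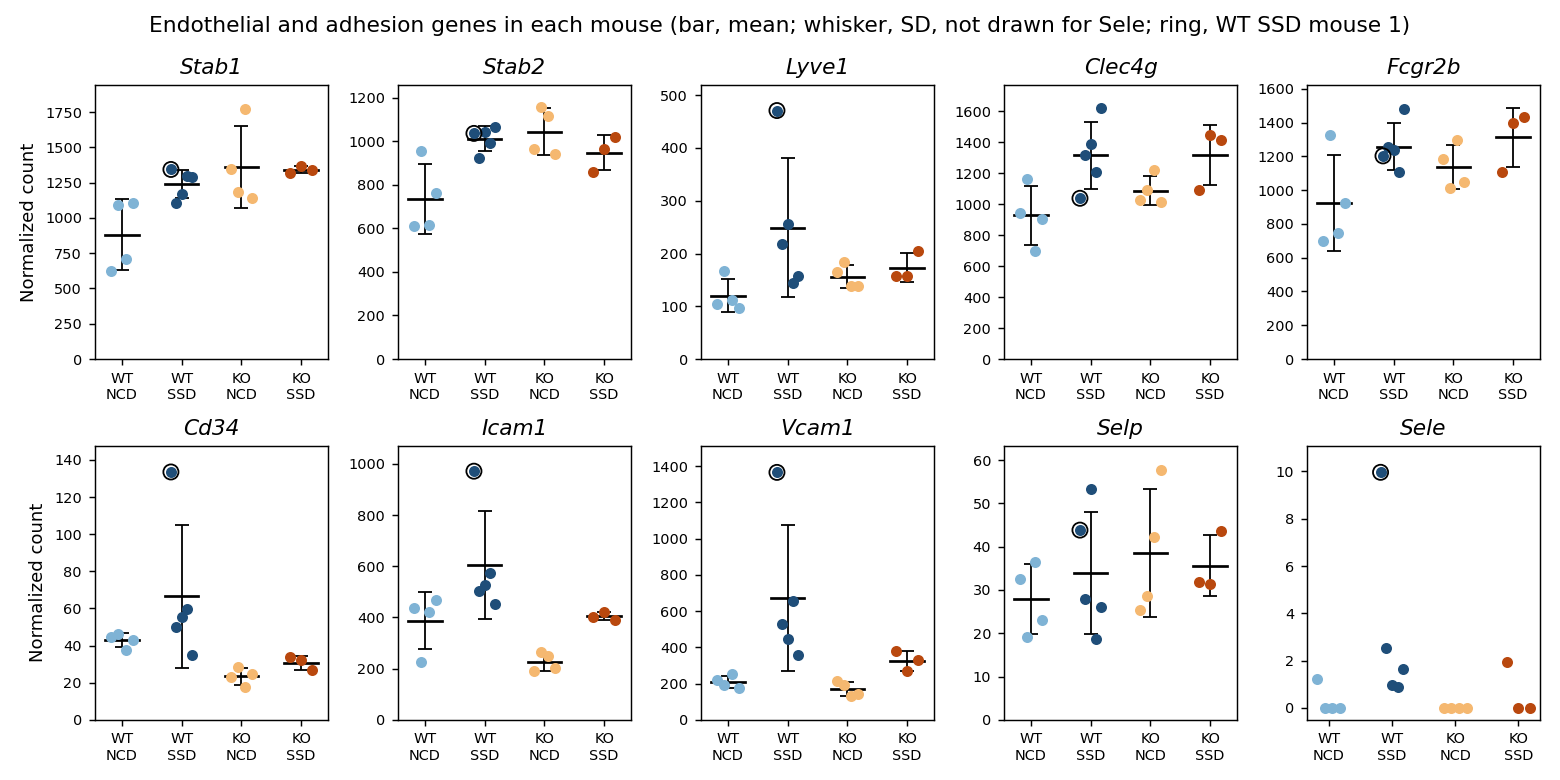
Normalized count of each of the 10 genes (vertical axes, linear, a separate scale for each gene) in each mouse, by genotype and diet. Points are mice, bars are group means and whiskers the SD (not drawn for Sele), and rings mark mouse 1 of the SSD-fed WT group, which is the highest mouse of all for Lyve1 (471), Cd34 (134), Icam1 (971), Vcam1 (1365) and Sele (9.96).

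In WT mice, all 5 sinusoidal genes were higher on SSD than on NCD, and Vcam1 had the largest fold change of the 9 genes tested. Stab1 and Stab2, the scavenger receptors that clear modified proteins and hyaluronan from blood, rose by 0.54 and 0.48 on the log2 scale, and Vcam1, the ligand of integrin VLA-4, rose by 1.53. Of the 9 genes tested (Sele was below the minimum mean of 10), 6 were called higher and none lower by limma at an adjusted p under 0.05, against 17.3% of all 13091 genes tested that were called higher. The groups did not overlap for Stab1 and Vcam1, as for 29.0% of all genes tested. The median log2 fold change of the 5 sinusoidal genes was 0.51, beside a median of 0.00 over all genes. Kupffer cell markers rose in the same comparison (5 of 9 called higher, median 0.60), and their part in this result was not tested.

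Stab1 lay at 625, 1088, 708 and 1102 normalized counts in the NCD-fed WT mice and at 1343, 1103, 1172, 1296 and 1287 in the SSD-fed WT mice. Every SSD-fed mouse was above every NCD-fed mouse, by as little as 1 normalized count at the edge, and the rise of 0.54 ± 0.16 (SE) had an adjusted p of 0.0238 by limma and an exact permutation p of 0.0159, the smallest this design allows. Stab2 lay at 610.2, 954, 618 and 760.3 on NCD and at 1036, 923, 1044, 994 and 1066 on SSD, and 4 of 5 mice on SSD lay above the whole NCD group (adjusted p = 0.0116 by limma). Clec4g, a lectin that binds glycans on pathogens and T cells, lay at 942, 1165, 699 and 904 on NCD and at 1038, 1319.7, 1389, 1205 and 1624 on SSD, and it rose by 0.51 ± 0.15 (adjusted p = 0.0219 by limma). NCD-fed mouse 2 stood above the other NCD-fed mice for Clec4g, Fcgr2b, Stab2 and Lyve1. Fcgr2b, which takes up small immune complexes in sinusoidal endothelium, lay at 698, 1327, 744 and 923 on NCD and at 1202, 1257, 1238, 1107 and 1483 on SSD, with only 1 SSD-fed mouse above NCD-fed mouse 2 (0.49 ± 0.17, adjusted p = 0.0383 by limma, exact permutation p = 0.0794). Lyve1, a receptor for hyaluronan that is shared with lymphatic vessels, lay at 105, 167, 112 and 97.1 on NCD and at 471, 219, 255, 144 and 158 on SSD. Its rise of 0.94 ± 0.30 (adjusted p = 0.0297 by limma) was the largest of the 5 sinusoidal genes and was 0.68 without SSD-fed mouse 1, when it was still called. Fcgr2b was not called by edgeR on the recovered reads (adjusted p = 0.0573) or by limma without a variance trend (0.0677), where Lyve1 was not called either (0.0532). Some of these calls rested on single mice: Stab1 was lost without NCD-fed mouse 1 (adjusted p = 0.0703 by limma) or 3 (0.0767), and Clec4g without NCD-fed mouse 3 (0.0695). Lyve1 was lost without NCD-fed mouse 1 (0.0812), 3 (0.0673) or 5 (0.0770) or SSD-fed mouse 3 (0.0584), and Fcgr2b without NCD-fed mouse 1 (0.121), 3 (0.115) or 5 (0.0652) or SSD-fed mouse 2 (0.0647), 3 (0.0617) or 5 (0.0751), whereas Stab2 and Vcam1 were called with each mouse left out in turn.

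Of the 4 adhesion genes, Vcam1 alone passed the threshold in WT mice. Vcam1 lay at 217, 189, 252 and 175 on NCD and at 1365, 529, 445, 656 and 356 on SSD, from a mean of 208 ± 33.6 (SD, n = 4) to 670.4 ± 404 (n = 5), without overlap. Its rise of 1.53 ± 0.31 (SE) had an adjusted p of 0.00283 by limma and was 1.23 without SSD-fed mouse 1. Icam1, the ligand of the leukocyte integrins LFA-1 and Mac-1, lay at 438, 225, 421 and 468 on NCD and at 971, 503, 525, 574 and 452 on SSD. Its difference was 0.64 ± 0.24, with 4 of 5 SSD-fed mice above all NCD-fed mice, and it missed the threshold (adjusted p = 0.0601 by limma). It passed without SSD-fed mouse 5 (0.73, adjusted p = 0.0427), with all 4 groups in 1 model (adjusted p = 0.0230), with DESeq2 on the recovered reads (0.0294) and with every library scaled to the same total (0.00680). It missed it with edgeR on the recovered reads (0.0625), with quantile normalization (0.0597) and without SSD-fed mouse 1 (0.45, adjusted p = 0.0908). Cd34, a sialomucin of continuous vessels and progenitor cells, lay at 44.6, 46.3, 37.8 and 43.0 on NCD and at 134, 49.8, 55.2, 59.5 and 35.1 on SSD, and its difference of 0.48 ± 0.31 fell to 0.19 without SSD-fed mouse 1 (adjusted p = 0.248 with all mice, by limma). Selp, the selectin stored in endothelial granules and platelets, lay at 32.6, 19.1, 36.5 and 23.2 on NCD and at 43.8, 27.9, 53.3, 18.7 and 26.1 on SSD, with a difference of 0.23 ± 0.32 that was within the spread of the mice (adjusted p = 0.615 by limma). Sele, the selectin that endothelium makes on cytokine stimulation, was at or near 0: 1 of the 4 NCD-fed WT mice had 1 read, the SSD-fed WT mice had 1 to 15 reads, the 4 NCD-fed Klrk1-/- mice had 0 reads, and the SSD-fed Klrk1-/- mice had 0 to 2. The 15 reads, or 9.96 normalized counts, were found in SSD-fed WT mouse 1, and every other mouse was at or under the floor of 3 reads.

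In Klrk1-/- mice the diet moved Icam1 and Vcam1 but none of the 5 sinusoidal genes past the threshold in the main fit. With every library scaled to the same total, Clec4g (0.53, adjusted p = 0.00286 by limma) and Fcgr2b (0.46, adjusted p = 0.00732) passed as well. Stab2 then turned from -0.14 to 0.12. Icam1 lay at 191, 264, 250.0 and 204 normalized counts on NCD and at 403, 421 and 392 on SSD, from 227 ± 35.2 (SD, n = 4) to 405 ± 14.7 (n = 3). The groups did not overlap, and the rise of 0.84 ± 0.13 (SE) had an adjusted p of 0.000491 by limma. Vcam1 lay at 214, 194, 131 and 141 on NCD and at 379, 267 and 328 on SSD, again without overlap, and it rose by 0.94 ± 0.18 (adjusted p = 0.00261 by limma). These were 2 of the 9 genes tested, where 13.4% of all 12904 genes tested were called higher and 37.6% did not overlap. Both were called in all 20 other fits tried, each mouse left out included, and neither was with a further fold limit of 2. The exact permutation p of both was 0.0571, the smallest that 3 against 4 mice can give.

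The sinusoidal genes of the Klrk1-/- mice lay close together on both diets. Stab1 lay at 1349, 1181, 1775 and 1143 on NCD and at 1319, 1366 and 1342 on SSD, a difference of 0.00 ± 0.13 (SE), and the SSD-fed values fell inside the range of the NCD-fed ones. Stab2 lay at 964, 1158, 1114 and 941 on NCD and at 859.5, 963 and 1020.0 on SSD (-0.14 ± 0.10). Lyve1 lay at 164, 184, 139 and 138 on NCD and at 157, 157 and 205 on SSD (0.15 ± 0.15). Clec4g and Fcgr2b each had 2 of 3 SSD-fed mice above all NCD-fed mice, with differences of 0.27 ± 0.11 and 0.21 ± 0.11 (adjusted p = 0.0882 and 0.196 by limma). Clec4g passed the threshold without NCD-fed mouse 3 (0.33, adjusted p = 0.0451) and without SSD-fed mouse 1 (0.40, adjusted p = 0.0241). Cd34 lay at 23.0, 28.6, 17.4 and 24.6 on NCD and at 33.8, 32.1 and 26.6 on SSD (0.40 ± 0.25, adjusted p = 0.244 by limma), and Selp at 25.3, 28.6, 42.3 and 57.8 on NCD and at 31.9, 31.3 and 43.7 on SSD (-0.05 ± 0.29).

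**Figure D2:**
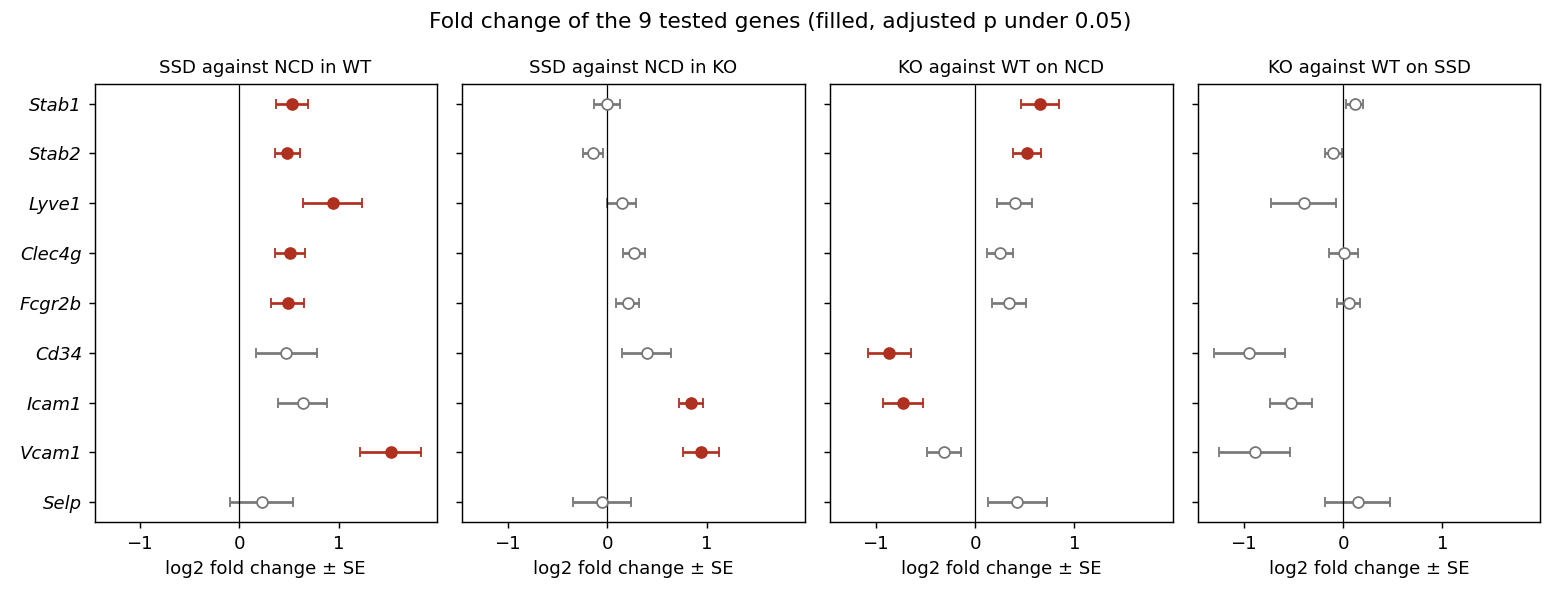
Log2 fold change (horizontal axes) with its SE for the 9 tested genes in the 4 comparisons, 1 panel each. Filled points passed an adjusted p of 0.05 by limma: 6 genes for SSD against NCD in WT, 2 for SSD against NCD in Klrk1-/- mice, 4 for Klrk1-/- against WT on NCD and none for Klrk1-/- against WT on SSD.

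A call in WT mice and none in Klrk1-/- mice does not show that the diet acted differently, so that difference was tested by itself. By limma, none of the 9 genes passed in the diet by genotype interaction over 16 mice, where 0.880% of 13068 genes were called. At an unadjusted p under 0.05 there were 2, beside 17.3% of all genes: Stab2 (-0.62 ± 0.17, unadjusted p = 0.00222, adjusted p = 0.0948) and Stab1 (-0.53 ± 0.24, adjusted p = 0.260). Of the other tools, edgeR called none and DESeq2 called Stab2 (adjusted p = 0.0416). Stab2 also passed with array weights (adjusted p = 0.0207) and without NCD-fed WT mouse 2 (-0.75, adjusted p = 0.0226), and its adjusted p ranged from 0.0207 to 0.240 over 28 alternatives. Lyve1 had an interaction of -0.79 ± 0.39, Vcam1 of -0.58 ± 0.42 and Icam1 of 0.21 ± 0.32, none past the threshold (adjusted p = 0.305, 0.490 and 0.766 by limma). Without SSD-fed WT mouse 1 these were -0.53, -0.28 and 0.39.

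On NCD, Klrk1-/- livers held more Stab1 and Stab2 and less Icam1 and Cd34 than WT livers. Stab1 was 1362 ± 289 normalized counts in Klrk1-/- (SD, n = 4) and 881 ± 250.1 in WT (n = 4), without overlap, and higher by 0.65 ± 0.19 (SE; adjusted p = 0.0400 by limma). Stab2 was 1044 ± 108 against 736 ± 161, with 3 of 4 Klrk1-/- mice above all WT mice (0.52 ± 0.14, adjusted p = 0.0287). Cd34 was 23.4 ± 4.65 against 42.9 ± 3.68, without overlap (-0.87 ± 0.22, adjusted p = 0.0234). Icam1 was 227 ± 35.2 against 388 ± 111 (-0.73 ± 0.20, adjusted p = 0.0362), and WT mouse 2, at 225, lay among the Klrk1-/- mice. Of the 9 genes tested, 2 were called higher and 2 lower, beside 6.41% and 6.66% of all 12845 genes tested, and 2 did not overlap, beside 19.3%. Lyve1, Clec4g and Fcgr2b were 0.40 ± 0.17, 0.25 ± 0.13 and 0.34 ± 0.17 higher, Selp was 0.42 ± 0.30 higher and Vcam1 0.31 ± 0.17 lower, none past the threshold (adjusted p from 0.140 to 0.352 by limma).

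These 4 calls on NCD rested on few mice and on the fit. All 4 were called by edgeR (adjusted p from 0.0245 to 0.0460) and DESeq2 (0.00314 to 0.0184) on the recovered reads and by limma under quantile normalization (0.0204 to 0.0424). By limma, Cd34 was lost with all 4 groups in 1 model (adjusted p = 0.0516) and Stab1 with robust variances (0.0638). Stab1 (0.100), Stab2 (0.0762) and Icam1 (0.0884) were lost without a variance trend, and Stab1 (0.0611) and Stab2 (0.0564) with equal totals. Leaving out WT mouse 1 left none of the 4 called (adjusted p = 0.101 for Stab1, 0.0723 for Stab2, 0.0532 for Cd34 and 0.0926 for Icam1 by limma), as did leaving out Klrk1-/- mouse 3 (0.117, 0.0793, 0.0675 and 0.0624). Without WT mouse 3, Cd34 alone was called, and Stab1 (0.0979), Stab2 (0.0733) and Icam1 (0.0820) were not. Without Klrk1-/- mouse 2, Cd34 alone was called again, with Stab1 at 0.0621, Stab2 at 0.0798 and Icam1 at 0.0519. Without WT mouse 2, Lyve1 (0.57, adjusted p = 0.0412) and Fcgr2b (0.53, adjusted p = 0.0279) were called as well and Cd34 was not (0.0609). Without WT mouse 5, Icam1 was lost (0.0639), without Klrk1-/- mouse 1, Icam1 (0.0807) and Stab1 (0.0713) were lost, and without Klrk1-/- mouse 4, Icam1 was lost (0.0725). The sign of the 4 fold changes stayed the same in each of these fits. Leaving out a mouse also leaves fewer mice to estimate the spread. This comparison and that of the diets in WT mice share the 4 NCD-fed WT mice, and 3 of these, mice 1, 3 and 5, had lower means of the 5 sinusoidal genes and more Icam1 than mouse 2, although mouse 5 had the most Stab1 of the 4.

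On SSD, no member passed the threshold between Klrk1-/- and WT livers by the main limma fit, edgeR or DESeq2. With a replicate block in limma 1 did, Vcam1 (-1.09, adjusted p = 0.0499). Across all 13116 genes tested, 2.90% were called. At an unadjusted p under 0.05 there were 3 of the 9, all lower in Klrk1-/- mice, beside 11.8% of all genes that were lower at that threshold. Cd34 was 30.8 ± 3.78 normalized counts in Klrk1-/- (SD, n = 3) and 66.6 ± 38.5 in WT (n = 5), a difference of -0.94 ± 0.36 (SE; adjusted p = 0.158 by limma). Vcam1 was 324 ± 56.1 against 670.4 ± 404 (-0.89 ± 0.35, adjusted p = 0.176), and Icam1 405 ± 14.7 against 605 ± 209 (-0.52 ± 0.21, adjusted p = 0.179). All 3 Klrk1-/- mice lay below all 5 WT mice for Cd34 and for Icam1, as for 17.9% of all genes in 1 or the other direction, and 2 of 3 did so for Vcam1. Without SSD-fed WT mouse 1 the differences were -0.66 for Cd34, -0.59 for Vcam1 and -0.34 for Icam1. The 5 sinusoidal genes differed by between -0.40 (Lyve1) and 0.12 (Stab1), with a median of 0.01 beside 0.00 over all genes, and without SSD-fed WT mouse 1 Lyve1 was at -0.13 and the median at -0.07.

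The group means of the sinusoidal genes and of the adhesion genes are given side by side, without a test between them. The mean log2 value of the 5 sinusoidal genes was 9.15 ± 0.32 (SD, n = 4) in NCD-fed WT mice and 9.75 ± 0.13 (n = 5) in SSD-fed WT mice. It was 9.59 ± 0.12 (n = 4) in NCD-fed Klrk1-/- mice and 9.68 ± 0.14 (n = 3) in SSD-fed Klrk1-/- mice. The NCD-fed WT group had the lowest mean, and the ranges of the other 3 groups overlapped. NCD-fed WT mouse 2 (9.59) lay within those ranges. The mean of Icam1 and Vcam1 was 8.12 ± 0.29 in NCD-fed WT mice, 9.20 ± 0.58 in SSD-fed WT mice, 7.60 ± 0.18 in NCD-fed Klrk1-/- mice and 8.50 ± 0.11 in SSD-fed Klrk1-/- mice. No NCD-fed mouse of either genotype reached any SSD-fed mouse for this pair. Both genes were called higher on SSD in Klrk1-/- mice and Vcam1 in WT mice, so this is not a separate result. The share of all genes that part the diets in this way was not counted. The closest were NCD-fed WT mouse 3 (8.35) and SSD-fed Klrk1-/- mouse 2 (8.39). With Selp and Sele included, the mean of the 4 adhesion genes was 5.33 ± 0.33, 6.29 ± 0.59, 5.11 ± 0.07 and 5.67 ± 0.26 in the same order, with the 2 NCD-fed groups within their spread. The diets then overlapped, as NCD-fed WT mice 1 (5.69) and 3 (5.48) lay above SSD-fed Klrk1-/- mouse 2 (5.45). Selp by itself was lowest on average in NCD-fed WT mice (27.8) and highest in NCD-fed Klrk1-/- mice (38.5). Vcam1 amounted to 29.8% ± 9.95 of the Stab2 count in NCD-fed WT mice, 66.2% ± 38.7 in SSD-fed WT mice, 16.4% ± 4.37 in NCD-fed Klrk1-/- mice and 34.6% ± 8.45 in SSD-fed Klrk1-/- mice. Icam1 amounted to 56.2% ± 22.2, 59.7% ± 19.9, 21.7% ± 1.34 and 43.0% ± 4.27 of it in the same order, so that the 2 diets lay within their spread of each other in WT mice. These ratios of 2 genes in the same library do not depend on how the library was scaled.

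**Figure D3:**
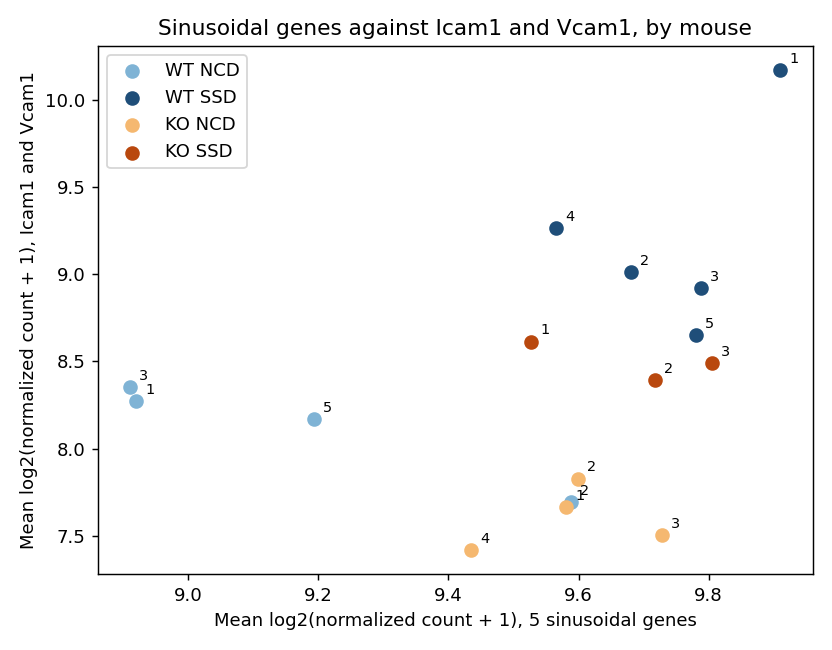
Mean log2(normalized count + 1) of the 5 sinusoidal genes (horizontal axis) and of Icam1 and Vcam1 (vertical axis) in each mouse, coloured by group and marked with the mouse number. NCD-fed WT mice 1, 3 and 5 lie at the left, from 8.91 to 9.19 for the sinusoidal genes, NCD-fed WT mouse 2 lies among the NCD-fed Klrk1-/- mice, and SSD-fed WT mouse 1 is the highest on both axes.

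Over the 16 mice, Stab1 and Stab2 had a Pearson r of 0.85 and Clec4g and Fcgr2b of 0.86 in their log2 values, and within groups, as deviations from group means, of 0.71 and 0.74. Icam1 and Vcam1 had 0.84 over all mice and 0.58 within groups, and Cd34 went with Vcam1 (0.81 and 0.84) rather than with Stab1 (-0.22 and -0.02). Over the mice without SSD-fed WT mouse 1, Icam1 and Vcam1 had 0.75, Cd34 and Vcam1 0.65, and Cd34 and Stab1 -0.46. Stab2 and Icam1 had -0.13 over all mice. Within groups the coefficients with Icam1 and with Vcam1 were -0.11 and -0.13 for Stab1 and -0.31 and -0.19 for Stab2. They were -0.61 and -0.73 for Clec4g, -0.59 and -0.39 for Fcgr2b, and 0.24 and 0.63 for Lyve1. Lyve1 was the exception among the sinusoidal genes, at 0.40 with Stab1 and 0.73 with Vcam1, and without SSD-fed WT mouse 1 it had 0.68 with Stab2 and with Clec4g and 0.48 with Vcam1. Selp followed none of the others, with coefficients from -0.10 to 0.32. The points of these coefficients share libraries, groups and scaling factors, and they are descriptions without a test.

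Among genes outside the 10, those most like the mean of the 5 sinusoidal genes over 16 mice were Dync1li2 (Pearson r = 0.94), Oit3 (0.92), Fyn (0.92), Gpihbp1 (0.92) and Adgrf5 (0.91), and within groups they stood at 0.76 to 0.84. Oit3 is known from sinusoidal endothelium and Gpihbp1 is the endothelial carrier of lipoprotein lipase. The 5 genes most like Vcam1 were Mthfd2 (0.98), Lgmn (0.98), Hmgb2 (0.98), Ccl6 (0.97) and Cd5l (0.97), of which Cd5l is a secreted protein of Kupffer cells and other macrophages, and they stood at 0.90 to 0.95 within groups and at 0.95 to 0.97 without SSD-fed WT mouse 1. Those most like Icam1 were the transcription factor gene Jun (0.94), Pla2g4a (0.93), Gtse1 (0.92), Tgfbr1 (0.91) and Emilin1 (0.91), which stood at 0.61 to 0.82 within groups and at 0.86 to 0.91 without SSD-fed WT mouse 1. For Selp the highest was Tmem138, at 0.70.

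The other endothelial genes were described from lists. In WT mice on SSD, 17.3% of all 13091 genes tested were called higher, and 2303 genes lower. There 9 of 15 tested genes from a list of other sinusoidal endothelial genes were called higher and 1, Wnt9b (-0.95 ± 0.34), lower, with a median of 0.48. Without SSD-fed WT mouse 1 there were 9 higher and none lower. Clec1b, the receptor CLEC-2, rose by 1.41 ± 0.24 (SE), from a mean of 112 to 309 normalized counts (adjusted p = 0.00107 by limma). It stood at 482 in SSD-fed WT mouse 1, and without that mouse it rose by 1.23 to a mean of 266 and was still called. Kupffer cell markers also rose in this comparison (5 of 9 called higher, median 0.60), and their part in the Clec1b result was not tested. Flt4, the receptor VEGFR3, rose by 0.77 ± 0.16, and Bmp2, by which sinusoidal cells signal to hepatocytes on iron stores, by 0.69 ± 0.15. Of 17 pan-endothelial genes, 11 were called higher and none lower, with a median of 0.58, led by the junction protein gene Esam (0.84 ± 0.13), Egfl7 (0.59 ± 0.12) and the TGF-beta co-receptor gene Eng (0.54 ± 0.11). The 6 that were not called lay between -0.26 (Cldn5) and 0.55 (Erg), and Clec14a was lost without SSD-fed WT mouse 1 (adjusted p = 0.0601 by limma). All 5 SSD-fed WT mice had less summed hepatocyte marker signal (1526587 to 1957013 normalized counts) than any NCD-fed WT mouse (2401588 to 2708205), and the part of cell composition in the result was not tested. Of 7 tested genes of continuous and activated vessels, 3 were called higher, Fabp4 (1.07 ± 0.19), Ly6a (1.03 ± 0.19) and the fenestral diaphragm gene Plvap (0.61 ± 0.14).

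In Klrk1-/- mice on SSD, 5 of 15 other sinusoidal genes and 3 of 17 pan-endothelial genes were called higher and none lower, with medians of 0.23 and 0.26, beside 13.4% of all genes called higher, a share near that of the pan-endothelial list. The summed hepatocyte markers were lower in these mice too, at 2055454 to 2211604 normalized counts on SSD against 2296174 to 3020962 on NCD, without overlap, and their part was not tested. The leading genes were Gata4, a transcription factor that specifies sinusoidal endothelium (0.49 ± 0.09), Wnt2, a ligand that sinusoidal cells send to hepatocytes (0.95 ± 0.21), Ehd3 (0.32 ± 0.08), the VE-cadherin gene Cdh5 (0.42 ± 0.10), Pecam1 (0.44 ± 0.11) and Esam (0.34 ± 0.09). In WT mice on SSD Gata4 (-0.13 ± 0.12) and Wnt2 (0.41 ± 0.27) were not called, while Ehd3, Cdh5, Pecam1 and Esam were called higher. Stellate cell markers also rose in Klrk1-/- mice on SSD (5 of 8 called higher), and their part in these results was not tested. Vwf (0.58 ± 0.15) and Plvap (0.45 ± 0.11) were called higher among 7 genes of continuous and activated vessels. Between genotypes on NCD, Clec1b (0.67 ± 0.17) was the 1 of 15 genes called from the list of other sinusoidal genes. The part of other cells in it was not tested. Of 17 pan-endothelial genes 5 were called higher, beside 6.41% of all genes, led by Sox18 (1.08 ± 0.21), Egfl7 (0.67 ± 0.13) and Esam (0.49 ± 0.12). On SSD no gene of either list was called between genotypes by limma, beside 2.90% of all genes. Of the 7 continuous and activated vessel genes 1 was called, Ly6a, beside 1.68% of all genes called lower. It was lower in Klrk1-/- mice (-0.88 ± 0.18, 231 against 437 normalized counts).

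Leukocyte receptors that bind these adhesion molecules were also followed. In WT mice on SSD 10 of 12 were called higher, with a median of 1.12, beside 17.3% of all genes. Macrophage markers rose in the same comparison. Of 7 tested recruited macrophage and monocyte markers, a list that also holds Itgax, 6 were called higher (median 1.71). Of 9 Kupffer cell markers 5 were (median 0.60). The part of these cells in the result was not tested. Itgax rose by 2.28 ± 0.41 (SE), from 20.6 to 129.5 normalized counts on average, and by 1.87 to an average of 80.0 without SSD-fed WT mouse 1, when it was still called. Itgb2, the shared chain of the ICAM-1 receptors, rose by 1.40 ± 0.27 and by 1.12 without that mouse, and Itga4, the VCAM-1 receptor chain, by 1.35 ± 0.30 and by 1.09 without it. In Klrk1-/- mice on SSD 4 of 12 were called higher, with a median of 0.39, beside 13.4% of all genes, among them Itgb2 (0.67 ± 0.15), Itga9 (0.41 ± 0.11) and Cd44 (0.56 ± 0.17). Between genotypes on SSD none of the 12 was called by limma with all mice (median -0.62), and 3 were called lower in Klrk1-/- mice without SSD-fed WT mouse 1 (median -0.34), where 3.26% of 13053 genes were called lower. Of 9 tested genes from a list of other vascular adhesion genes, 4 were called higher and 1 lower in WT mice on SSD. Of all 13091 genes tested there, 2265 were called higher and 2303 lower. Without SSD-fed WT mouse 1, 1 of the 9 was called higher and 1 lower. With all mice those called higher were Jam2 (0.63 ± 0.18), Mcam (0.74 ± 0.24), Jam3 (0.73 ± 0.25) and Icam2 (0.54 ± 0.20), the last 2 of which, like Wnt9b, Birc3, Cldn5, Erg, Clec14a, Traf1 and Nfkb2, are named after their values were seen, and vitronectin, Vtn, a hepatocyte product, fell by 0.62 on the log2 scale. In Klrk1-/- mice Jam2 rose (0.51 ± 0.13) and Vtn fell by 0.42, where 1723 of 12904 genes were called higher and 2067 lower. On NCD 2 of the 9 were called, F11r (-0.30 ± 0.08) and Fn1 (-0.38 ± 0.11). Both were lower in Klrk1-/- mice, beside 6.66% of all genes called lower.

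Feedback and target genes of NF-kappaB, the pathway of the promoter matches above, were called higher for 4 of 10 genes in WT mice on SSD, with a median of 0.31, beside 17.3% of all genes, and without SSD-fed WT mouse 1 the median was 0.17 with 4 called. Tnfaip3, the inhibitor A20, rose by 1.68 ± 0.35 (SE) and by 1.34 without that mouse, Relb by 1.54 ± 0.36 and Nfkbia, the inhibitor IkappaBalpha, by 0.56 ± 0.13. In Klrk1-/- mice 3 were called higher, beside 13.4% of all genes, Bcl3 (0.50 ± 0.10), Nfkbia (0.43 ± 0.12) and Relb (0.74 ± 0.21). Birc3 (-0.39 ± 0.13) was the 1 called lower, beside 2067 of all 12904 genes tested. Klrk1-/- mice on SSD held less Relb (-1.26 ± 0.25, 64.1 against 161 normalized counts) and Tnfaip3 (-1.87 ± 0.40, 33.6 against 142) than WT mice on SSD, the 2 of 10 called, beside 1.68% of all genes called lower. Without SSD-fed WT mouse 1 the differences were -1.06 and -1.53, both still called, and Nfkb2 (-0.44) was called as well, beside 3.26% of all genes. In this comparison 7 recruited macrophage and monocyte markers had a median of -1.35, with 0 called, and without that mouse -0.95, with 4 called lower. The 9 Kupffer cell markers had a median of -0.64, with 1 called lower, and without that mouse -0.46, with 2 called lower. The part of these cells was not tested. On NCD, Bcl3 was the 1 gene of the 10 called, lower in Klrk1-/- mice (-1.13 ± 0.23, 574 against 1338 normalized counts), beside 6.66% of all genes called lower, and the others lay between -0.59 (Tnfaip3) and 0.50 (Traf1).

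**Figure D4:**
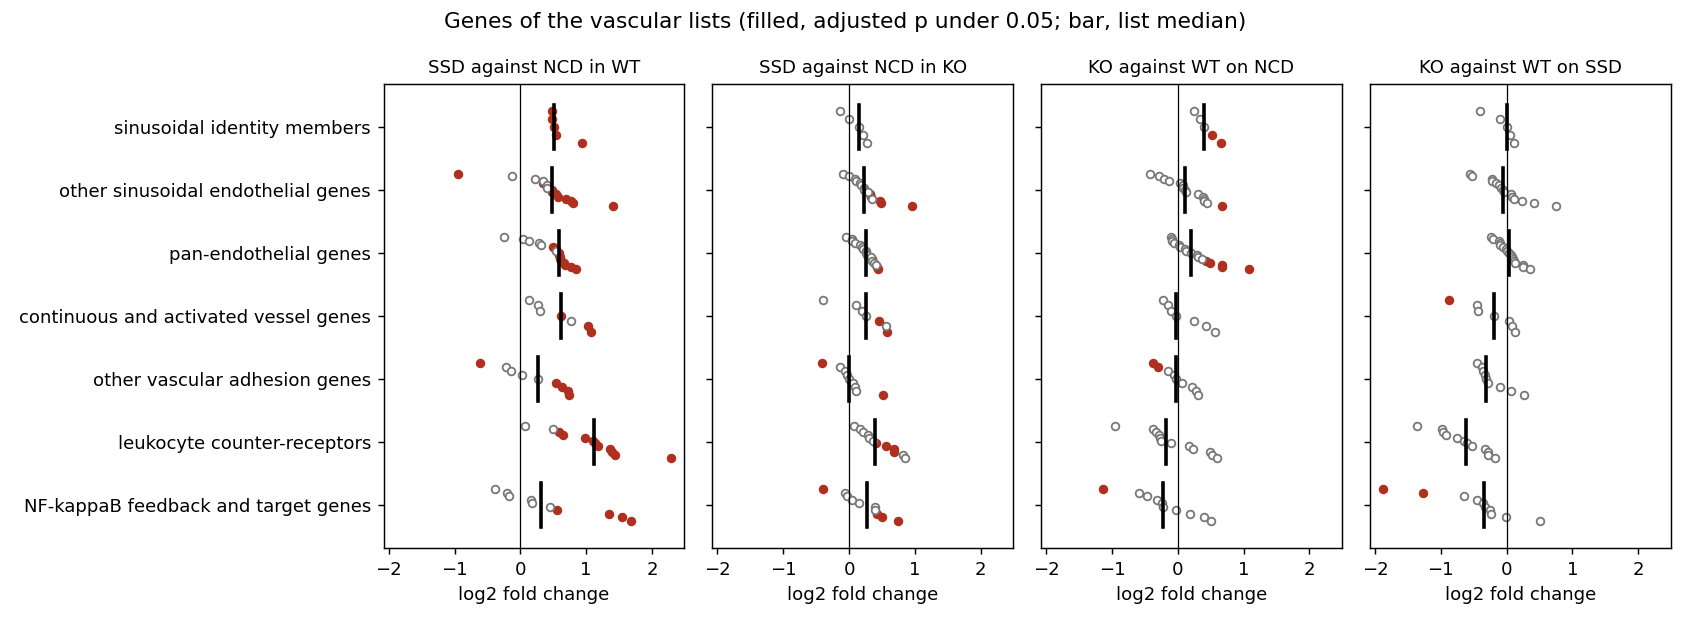
Log2 fold change (horizontal axes) of every tested gene of 7 lists in the 4 comparisons, 1 panel each. Filled points passed an adjusted p of 0.05 by limma and bars are list medians: in WT mice on SSD the medians of the sinusoidal genes (0.51), the pan-endothelial genes (0.58) and the leukocyte receptors (1.12) lie above 0.

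Markers of other cells were followed as whole lists, because several of the 10 genes are also made outside endothelium. The summed Kupffer cell markers (9 of 9 found, none at 0) lay between 6349 and 7026 normalized counts in NCD-fed WT mice, between 8236 and 18839 in SSD-fed WT mice, between 5431 and 6720 in NCD-fed Klrk1-/- mice and between 6783 and 8639 in SSD-fed Klrk1-/- mice. Recruited macrophage and monocyte markers (8 found) lay between 528 and 684, between 1436 and 4558, between 602 and 719 and between 1377 and 1464 in the same order. SSD-fed WT mice 1 and 4 were the highest for Vcam1 and for the Kupffer cell sum. Their part in the Vcam1 result was not tested. For Icam1, the 4 NCD-fed Klrk1-/- mice held 191 to 264 normalized counts at recruited macrophage sums of 602 to 719, NCD-fed WT mouse 2 held 225 at 528, and the other NCD-fed WT mice held 421 to 468 at 566 to 684. On SSD the Klrk1-/- mice held 392 to 421 at sums of 1377 to 1464 and the WT mice 452 to 971 at 1436 to 4558. The part of these cells in the Icam1 result was not tested either.

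Stellate cell and fibroblast markers (8 found) lay between 5249 and 6626 normalized counts in NCD-fed WT mice and between 5787 and 26986 in SSD-fed WT mice, where mouse 1 was the highest. They lay between 5018 and 6740 in Klrk1-/- mice on NCD and between 7360 and 8882 on SSD, without overlap, and 5 of the 8 were called higher by limma, beside 13.4% of all genes called higher and 37.6% without overlap. In WT mice on SSD 3 of the 8 were called higher (median 0.67), beside 17.3% of all genes, and 4 without SSD-fed WT mouse 1 (median 0.50). Vcam1 rose with the diet in both genotypes, and the part of stellate cells in it was not tested. B cell markers (6 found) lay between 487 and 1207 in NCD-fed WT mice and between 1662 and 2122 in NCD-fed Klrk1-/- mice, the comparison in which Fcgr2b was 0.34 higher in Klrk1-/- mice without passing the threshold. On SSD their sum lay between 229 and 371 in WT mice and between 257 and 301 in Klrk1-/- mice, below every NCD-fed mouse. The diet groups did not overlap for 29.0% of all genes in WT mice and for 37.6% in Klrk1-/- mice. Of the 6 markers, 1 was called lower on SSD in each genotype, and none higher. Of all genes, 2303 of 13091 were called lower in WT mice and 2067 of 12904 in Klrk1-/- mice. The list medians were 0.27 and 0.08, so the fall of the sum was not shared by the list. Fcgr2b was called higher on SSD in WT mice, and the part of B cells in it was not tested. Platelet and megakaryocyte markers (8 found), a second source of Selp, lay between 146 and 199.9 in all WT mice and between 164 and 303 in all Klrk1-/- mice, and none of the 4 tested was called in any comparison by limma. The lymphatic endothelium list (6 found), which holds Lyve1 itself and shares Reln with the stellate list, lay between 1790.5 and 3605 over all mice. Its sum is therefore not a measure of lymphatic vessels alone. Neutrophil markers (7 found) lay between 77.5 and 280.3, with Ly6g at the floor in every mouse. The summed T and NK cell markers (8 found) lay between 139.9 and 166 on NCD and between 88.2 and 151 on SSD in WT mice. In Klrk1-/- mice they lay between 159 and 225 on NCD and between 106 and 117 on SSD, without overlap, as for 37.6% of all genes. Of 4 tested in WT mice, Cd4 was called lower on SSD (-2.09 ± 0.21) and Trac higher (0.99 ± 0.34), with a median of 0.80. Of 5 tested in Klrk1-/- mice, Cd4 alone was called, lower (-1.92 ± 0.25), with a median of 0.04. Cholangiocyte markers (5 found) lay between 199 and 419.7, mesothelial markers (4 found) between 17.1 and 159, and red cell markers (4 found) between 2138 and 13884.

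**Figure D5:**
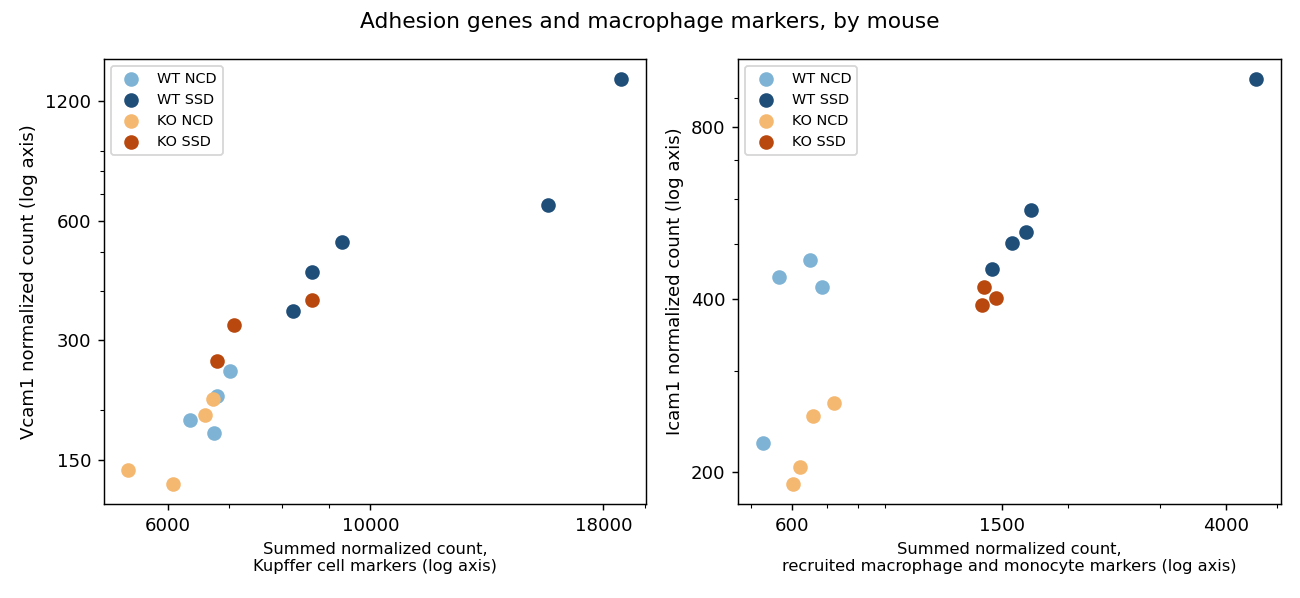
Vcam1 against summed Kupffer cell markers (left) and Icam1 against summed recruited macrophage and monocyte markers (right) in each mouse, both axes logarithmic and in normalized counts, coloured by group. Vcam1 is highest in the 2 SSD-fed WT mice with the highest Kupffer cell sums, and Icam1 is highest in the SSD-fed WT mouse with the highest recruited macrophage sum (971 at 4558), while among NCD-fed mice it runs from 191 to 468 at sums of 528 to 719.

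Read counting adds limits to single genes. In the GENCODE M39 annotation 8 of the 10 genes share 61 to 919 exon bases with a gene on the opposite strand, and Lyve1 and Sele share none. The strand setting of the counting is not given in the sources used here, so reads of such partners cannot be told apart. Scaling every library to the same total instead of using the authors' factors moved the median of all genes by 0.35 in WT mice on SSD, by 0.26 in Klrk1-/- mice on SSD and by -0.11 between genotypes on SSD. Under it 6341 genes were called higher and 719 lower in WT mice on SSD, against 2265 and 2303, and 4832 and 803 in Klrk1-/- mice on SSD, against 1723 and 2067. Between genotypes on SSD, 88 were called higher and 378 lower, against 160 and 221, and in the interaction 21 and 87, against 42 and 73. The 5 sinusoidal genes had positive fold changes in SSD-fed WT mice under the authors' factors, equal totals and quantile normalization, and all were called except Lyve1 under quantile normalization (0.86, adjusted p = 0.0519 by limma). In Klrk1-/- mice Stab2 turned from -0.14 to 0.12 under equal totals and Clec4g (0.53) and Fcgr2b (0.46) were then called higher.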

How the data were processed

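Whole-liver RNA of 16 mice was sequenced as single reads of 100 bases. The labels name an mRNA kit, where the methods of the study give a kit for total RNA. The authors aligned reads to GRCm39 with STAR, counted them per gene with FeatureCounts on GENCODE M26 and deposited a signal per gene and library, the count divided by 1 factor per library. How the factors were made is not given in the sources used here. The authors also deposited the fraction of G and C bases per gene, not used for any result, and a gene length. All values were whole multiples of 1 step per library (100% within 0.01), which gave back 19892025 to 28936707 reads on genes. Mice of a group differed by more than sampling noise.

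Genes whose normalized count averaged 10 or more in the mice compared were tested by limma (3.58.1, R 4.3.3) with a variance trend on log2(normalized count + 1), two-sided, with Benjamini-Hochberg adjustment over all genes tested, and called at an adjusted p under 0.05. This scale understates the change of low genes. Each model held only the groups compared, and the interaction all 16 mice. Members were also tested by an exact two-sided permutation test, whose smallest p is 0.0159 for the diets in WT mice, 0.0357 between genotypes on SSD, 0.0286 between genotypes on NCD and 0.0571 for the diets in Klrk1-/- mice. In simulated data limma recovered 99.5% to 100% of 200 genes changed 2 log2 units. The 10 members, the lists and the tests were chosen with earlier results of these data known. From each other list and comparison, up to 3 called genes with the smallest adjusted p were named, and for likeness the 5 genes with the highest Pearson correlation over 16 mice. Alternatives were pseudocounts of 0.5 and 10, no minimum mean and 50, no variance trend, robust variances, array weights, equal totals, quantile normalization, edgeR (4.0.16) and DESeq2 (1.42.0) on recovered reads, all 4 groups in 1 model, a replicate block, fold limits of 1.5 and 2, and each mouse left out. The transcript lengths and the list results without SSD-fed WT mouse 1 were added after the data were seen.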

Additional observations from a re-analysis of the deposited data

Results flagged for a closer look

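In groups of 4 or 5 mice, 29 sets of values of the 10 genes were examined for a mouse whose gap to the nearest other was large against the range of its group, and 4 were marked, where chance marks about 1 in 20. SSD-fed WT mouse 1 gave 3 of them: Cd34 at 134 normalized counts, with a gap of 0.752 of the range, Icam1 at 971 (0.765) and Sele at 9.96 (0.819). The last was Sele in NCD-fed WT mouse 1, at 1.21 normalized counts, which is 1 read where the other 3 mice had 0. Groups of 3 were not examined.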

How the results depend on the processing

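The number of called members was 6 for SSD against NCD in WT mice, 0 between genotypes on SSD, 4 between genotypes on NCD, 2 for SSD against NCD in Klrk1-/- mice and 0 in the interaction. A further fold limit of 1.5 left 2 in WT mice on SSD and of 2 left 1, and a fold limit of 2 left 0 between genotypes on NCD and 0 in Klrk1-/- mice on SSD. Without a variance trend 4 were called in WT mice on SSD and 1 between genotypes on NCD. Equal totals gave 2 there and 4 in Klrk1-/- mice on SSD. Array weights and DESeq2 each gave 1 in the interaction. Leaving out each mouse in turn gave 2 to 6 in WT mice on SSD, 0 between genotypes on SSD, 0 to 5 between genotypes on NCD, 2 to 3 in Klrk1-/- mice on SSD and 0 to 1 in the interaction. With the replicate block 5, 1, 3, 2 and 0 were called in the order above, Vcam1 being the 1 between genotypes on SSD (-1.09, adjusted p = 0.0499 by limma), and Stab1 in WT mice on SSD (adjusted p = 0.0646) and Icam1 on NCD (adjusted p = 0.113) were lost. Same-numbered mice are different animals whose deviations had correlations from -0.324 to 0.237, so the numbers were not taken to pair them. Over the alternatives the calls among all genes ranged from 2974 to 7060 in WT mice on SSD, 45 to 1414 between genotypes on SSD, 717 to 2357 between genotypes on NCD, 2397 to 5635 in Klrk1-/- mice on SSD and 37 to 474 in the interaction. Of 1000 fold changes of members under an alternative, 907 kept direction and side of the threshold, 45 lost a call, 15 gained 1 and 33 that were never called changed sign. The cause was not tested. Depth limits Sele, with at most 15 reads, and Cd34 and Selp, with at least 14 and 19.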
